A study of Mus musculus with 20 samples.

Results

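The Zfp genes are mouse genes named for the zinc finger domains of the proteins they encode. All genes of the blood expression table whose symbol is Zfp followed by a number, and whose level was at least 1 RPKM (reads scaled to gene length and library size) in at least 4 of 20 mice, are described here as a group. These were 167 of the 190 Zfp genes listed and of the 9228 genes of all kinds listed. Their levels therefore chose them, and that each reached 1 RPKM is no result. Just inside the limit, with 4 mice at 1 RPKM or more, were among others Zfp410, Zfp142 and Zfp46, with highest values of 1.23, 1.40 and 1.28 RPKM. Just outside were 4 genes with 3 such mice, among them Zfp839, whose highest value was 1.22 RPKM. Zfp142 reached 1 RPKM in wild-type mice only, so the rule itself required a difference of it. The mean level over all mice ran from 0.757 to 30.2 RPKM with a median of 1.66 RPKM, and 123 of the 167 genes had a mean under 3 RPKM. In 59 genes all 20 mice stood at 1 RPKM or more.

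A zinc finger is a short protein fold in which cysteine and histidine residues hold a zinc ion. In C2H2 proteins, a row of such fingers reads a stretch of DNA. In vertebrates many C2H2 proteins also carry a KRAB domain at the start of the protein, which recruits the co-repressor TRIM28 and the histone methyltransferase SETDB1 and so silences chromatin, largely over endogenous retroviruses. A CCCH finger instead binds RNA, and the TTP family of Zfp36, Zfp36l1 and Zfp36l2 uses a pair of them to bind AU-rich elements of cytokine mRNAs and to hand these to the CCR4-NOT deadenylase. In blood, Zfp318 is known as the factor that allows mature B cells to make the IgD transcript.

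Peripheral blood RNA came from female C57BL/6 mice of 22 to 23 weeks, with 4 mice for each of 5 genotypes. These were wild type (WT) and Lyn-/- mice, and 3 genotypes that lacked a further gene besides Lyn. In Lyn-/-Ifnar1-/- mice Ifnar1 was deleted on both chromosomes. Irf5 was deleted on 1 chromosome in Lyn-/-Irf5+/- mice and on both in Lyn-/-Irf5-/- mice. Every group except WT thus lacks Lyn, a Src family kinase that restrains signalling in B cells and myeloid cells and whose loss gives a lupus-like disease, and no deletion was restricted to a cell type or induced in the adult. Ifnar1 encodes a chain of the type I interferon receptor and Irf5 a transcription factor that Toll-like receptors activate. Whole blood was used without sorting, so each value mixes all its cells. A fall can mean fewer cells of a type or less RNA per cell, and these cannot be told apart. The labels name separate libraries of each genotype and no batch. The sample records of the 4 Lyn-/-Irf5+/- mice are numbered apart from those of all other mice. Whether these mice were handled or sequenced separately is not stated. Such a difference could not be told apart from their genotype.

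Of the 167 genes, 162 were matched to RefSeq by symbol and 5 by an older name (among them Zfp191, Zfp828 and Zfp259, now Zfp24, Champ1 and Zpr1). In the longest open reading frame of their GENCODE transcripts, 64 had a KRAB pattern with C2H2 fingers, 97 had C2H2 fingers without it, 3 had a pair of CCCH fingers and 3 (Zfp703, Zfp330 and Zfp259) matched neither finger pattern. The number of C2H2 patterns in a protein went up to 37, in Zfp142. The first finger of each TTP family gene is shown because these were the Zfp genes with the highest levels in blood. Capitals mark the codons of the cysteines and the histidine that hold the zinc.
Zfp36: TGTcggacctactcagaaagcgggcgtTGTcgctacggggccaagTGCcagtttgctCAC
Zfp36l1: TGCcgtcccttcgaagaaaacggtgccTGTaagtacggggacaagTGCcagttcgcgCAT
Zfp36l2: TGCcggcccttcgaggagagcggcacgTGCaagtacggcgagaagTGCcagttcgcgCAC
Over these 60 bases Zfp36l1 and Zfp36l2 had 49 bases and 17 of 20 encoded residues in common. Zfp36 shared 42 bases and 13 residues with Zfp36l1, and 40 bases and 14 residues with Zfp36l2. The stretches code for residues 101 to 120, 120 to 139 and 161 to 180 of open reading frames of 319, 338 and 484 residues. On GRCm38.p6 (mm10) the genes lie at chr7:28376784-28379228, chr12:80107760-80113013 and chr17:84183924-84187947.

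The C2H2 fingers differ in the residues between the zinc-binding positions, which contact DNA. The first finger is shown of 3 genes with more than 10 C2H2 patterns that are described below, chosen after their values were seen. Capitals mark the cysteine and histidine codons.
Zfp553: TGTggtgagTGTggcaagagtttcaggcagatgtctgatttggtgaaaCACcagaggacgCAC
Zfp472: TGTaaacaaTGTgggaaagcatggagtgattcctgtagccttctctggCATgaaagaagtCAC
Zfp169: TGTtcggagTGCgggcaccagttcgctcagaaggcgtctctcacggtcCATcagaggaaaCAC
Zfp553 (chr7:127233061-127238197) encodes 12 C2H2 patterns without a KRAB pattern. Zfp472 (chr17:32965831-32979211) encodes 13 and Zfp169 (chr13:48480763-48513493) 17, both with a KRAB pattern. The KRAB genes stand in clusters of related copies, so that reads which match several of them may have been split or dropped, and their values are uncertain to that extent. Chromosome 7 held 31 of the 167 genes, chromosome 17 held 21, and chromosomes 8 and 13 held 16 each.

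Whole reads could be recovered from the RPKM steps for 9227 of the 9228 genes. Odd numbers made up 49.1% to 50.8% of the counts of each mouse, so that no common factor of 2 was left in them. The reads came to 1020207 to 2414393 in a mouse, and the median Zfp gene held 6 reads in Lyn-/-Ifnar1-/- mouse 3, the shallowest library for these genes, and up to 31 in WT mouse 1. Single Zfp genes therefore carry sizeable counting error. In Lyn-/-Ifnar1-/- mouse 3, 4 of the 167 genes had no read. Hemoglobin genes made up 55.5% to 78.9% of the summed RPKM. Lyn stood at 32.4 to 36.9 RPKM in WT mice and at 2.42 to 13.8 RPKM in the other 16 mice. Whole-gene levels of Irf5 and Ifnar1 do not show the deleted parts and check nothing here (Irf5 stood at 35.1 to 40.8 RPKM in Lyn-/-Irf5-/- mice and 20.1 to 21.7 RPKM in WT mice).

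The 167 genes together stood lower in Lyn-/- blood than in WT blood, and the genotypes with less Irf5 lay between. Their summed level was 506, 502, 497 and 520 RPKM in the 4 WT mice. In the Lyn-/- mice it was 432, 395, 399 and 397 RPKM. In Lyn-/-Ifnar1-/- mice it was 452, 442, 411 and 408 RPKM. No Lyn-/- mouse reached the lowest WT mouse, and the Lyn-/- and Lyn-/-Ifnar1-/- mice overlapped. Lyn-/-Irf5+/- mice had sums of 479, 483, 491 and 466 RPKM and Lyn-/-Irf5-/- mice of 468, 488, 463 and 441 RPKM. Both groups lay above all Lyn-/- mice and below all WT mice. The number of Zfp genes at 1 RPKM or more was 140 to 152 in WT mice, 102 to 115 in Lyn-/- mice, 114 to 130 in Lyn-/-Ifnar1-/- mice, 136 to 143 in Lyn-/-Irf5+/- mice and 131 to 142 in Lyn-/-Irf5-/- mice. These sums and numbers rest on the genes that the level rule chose and were not tested.

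**Figure D1:**
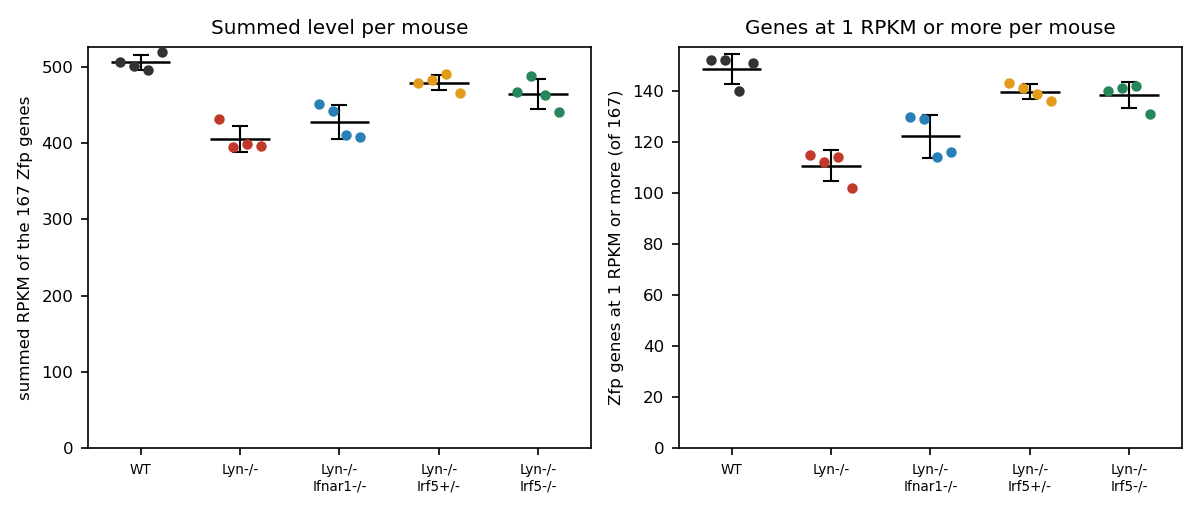
Summed RPKM of the 167 Zfp genes (left) and the number of them at 1 RPKM or more (right) in each mouse, by genotype. Points are mice, long bars the mean and error bars the SD of 4 mice. The 4 Lyn-/- mice sit at 395 to 432 RPKM and the 4 WT mice at 497 to 520 RPKM.

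The loss of Lyn was examined first, as the comparison of diseased with normal blood. Many more Zfp genes were lower than higher in Lyn-/- mice. Of the 167 genes 56 fell and 6 rose (limma on log2(RPKM + 0.5), adjusted p under 0.05 over the 8696 genes that met the same level rule), and 105 did not pass. Of all genes tested, 15.5% fell and 17.1% rose, against 33.5% and 3.59% of the Zfp genes. The median log2 fold change of the Zfp genes was -0.38, that of all genes -0.033, and 139 of the 167 (83.2%, against 52.3% of all genes) had a value under 0. The mice of the 2 genotypes did not overlap in 48 of the 56 genes that fell and in 4 of the 6 that rose. Overlap was not counted over all called genes, so this is not shown to be a trait of the Zfp genes. A member that reached the level limit through WT mice alone had to differ, so these counts describe the chosen genes. Scaling the libraries to the same RPKM sum moved the median of all genes from -0.033 to -0.25, or to -0.53 with hemoglobin genes left out of the sum. Relative to all genes the Zfp median was then -0.32 and -0.28, against -0.35 in the deposited scaling. The number of Zfp genes that fell became 10 and 85 and the number that rose 0 in both. How many of all genes were called under these scalings is not given here, so 10 and 85 cannot be set against it. The number that rose was 3 without any 1 of WT mice 1, 2 and 4 and Lyn-/- mice 2 and 3.

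Levels of cell type markers also differed in this comparison. All 19 B cell markers listed (of 20) fell, with a summed level of 779 to 1050 RPKM in WT mice and 88.6 to 131 RPKM in Lyn-/- mice. Of 20 T cell markers 10 fell and none rose, and their sum was 490 to 629 RPKM in WT mice and 324 to 472 RPKM in Lyn-/- mice. Of 10 NK cell markers 6 fell, and their sum was 127 to 149 and 53.7 to 102 RPKM in these genotypes. All 14 monocyte markers tested rose (864 to 961 against 2620 to 3530 RPKM), as did 14 of 16 neutrophil markers (586 to 962 against 1480 to 8260 RPKM). Of 15 erythroid markers 6 rose and none fell, with overlapping sums, and of 4 plasma cell markers 3 fell and 1 rose. No marker of these lists was at 0 in all mice of a genotype. The part of these cell types in the levels of the Zfp genes was not tested.

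Within the TTP family only Zfp36l1 passed the test for Lyn loss. Zfp36, TTP itself, stood at 27.9, 25.1, 29.2 and 31.2 RPKM in WT mice and at 38.6, 31.2, 29.1 and 28.5 RPKM in Lyn-/- mice, which overlap. Its log2 fold change was 0.16 ± 0.15 (SE, limma adjusted p = 0.45), and the sign turned when the libraries were scaled to the same sum (-0.089, or -0.42 outside hemoglobin genes). Zfp36l1, which restrains cell division during lymphocyte development, stood at 23.6, 25.0, 29.9 and 25.5 RPKM in WT mice and at 16.5, 15.2, 15.7 and 12.7 RPKM in Lyn-/- mice. Every WT mouse lay above every Lyn-/- mouse, and Zfp36l1 fell (log2 fold change -0.77 ± 0.16 SE, limma adjusted p = 0.0013). It was at a like level in the other 3 genotypes, with means of 14.2 ± 1.83, 15.6 ± 1.92 and 13.7 ± 3.81 RPKM (SD, n = 4 each) in the order Ifnar1, Irf5 heterozygous and Irf5 null. Zfp36l2 stood at 24.5 to 26.8 RPKM in WT mice and 19.1 to 23.3 RPKM in Lyn-/- mice, without overlap, but it did not pass (log2 fold change -0.32 ± 0.16 SE, limma adjusted p = 0.15).

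**Figure D2:**
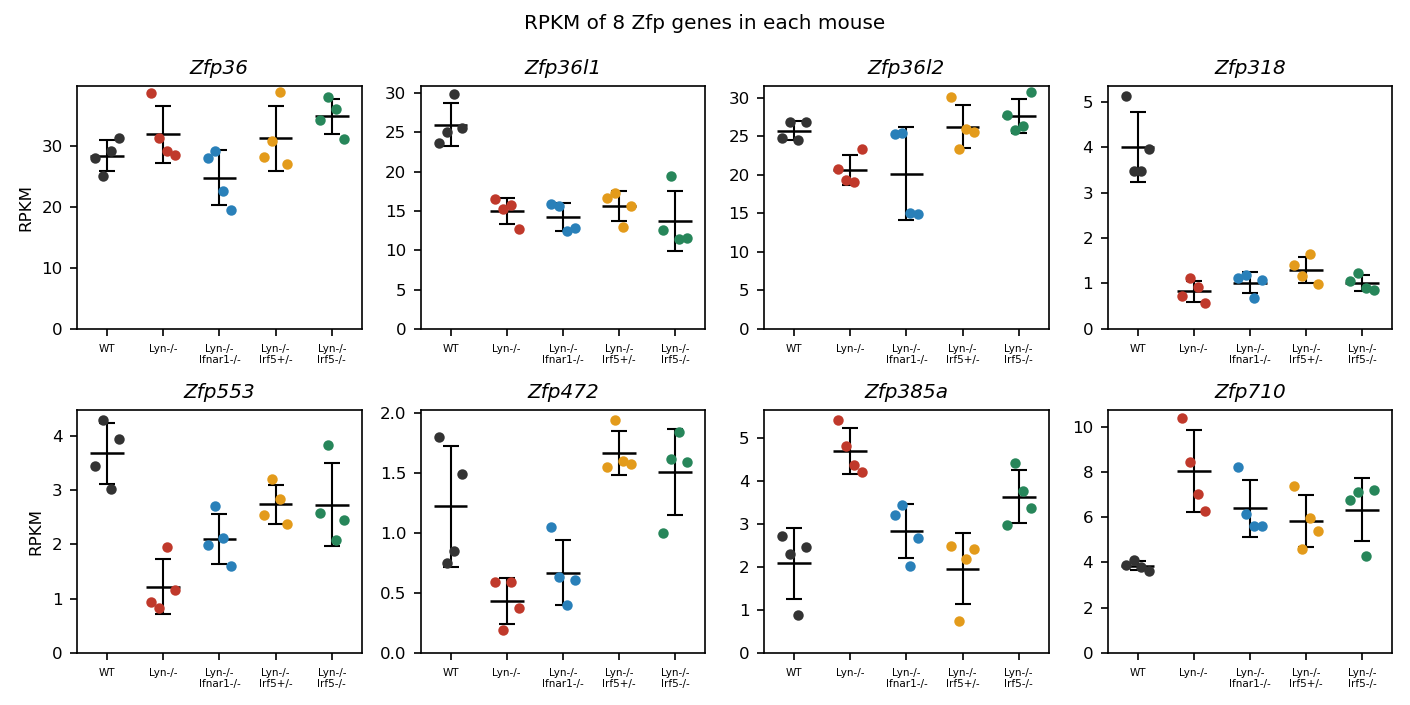
RPKM of 8 Zfp genes in each mouse, by genotype. Points are mice, long bars the mean and error bars the SD of 4 mice, and every vertical axis starts at 0. Zfp318 is at 3.47 to 5.12 RPKM in WT mice and at most 1.65 RPKM in all other mice.

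Zfp318 had the largest fall of the 167 genes. It stood at 5.12, 3.47, 3.48 and 3.96 RPKM in WT mice and at 0.728, 1.11, 0.912 and 0.578 RPKM in Lyn-/- mice. The groups were far apart, and its log2 fold change was -1.76 ± 0.18 (SE, limma adjusted p = 2.6e-07). It stayed at 1.02 ± 0.234 RPKM in Lyn-/-Ifnar1-/- mice, 1.30 ± 0.291 RPKM in Lyn-/-Irf5+/- mice and 1.01 ± 0.176 RPKM in Lyn-/-Irf5-/- mice (SD, n = 4 each). In these 3 genotypes the B cell marker sum was 108 to 252, 249 to 286 and 226 to 346 RPKM, above the 88.6 to 131 RPKM of Lyn-/- mice apart from an overlap in Lyn-/-Ifnar1-/- mice, and below the 779 to 1050 RPKM of WT mice.

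Of 29 Zfp genes with a role known in blood, immune cells or genome control, 6 fell and 1 rose in Lyn-/- mice, with a median of -0.31. The share that fell was 20.7%, against 15.5% of all genes and 33.5% of the 167 Zfp genes. Besides Zfp318 and Zfp36l1, the genes that fell were Zfp292, Zfp809, Zfp608 and Zfp148. Zfp809, which silences retroviruses in mouse embryonic cells through TRIM28, stood at 2.11, 4.01, 2.68 and 2.16 RPKM in WT mice and at 1.70, 0.418, 1.31 and 1.24 RPKM in Lyn-/- mice. These do not overlap (log2 fold change -0.99 ± 0.26 SE, limma adjusted p = 0.0065). Zfp608, known as a repressor of the Rag genes in mouse thymocytes, was 1.80 to 2.03 RPKM in WT mice and 0.902 to 1.29 RPKM in Lyn-/- mice (-0.63 ± 0.16 SE, limma adjusted p = 0.0057). Zfp148, which binds GC-rich promoters, had a fold change of -0.46 ± 0.17 (SE) and lost its call without any 1 of WT mice 1, 3 and 4 and Lyn-/- mice 2 and 4 (limma adjusted p = 0.040, up to 0.12 without 1 mouse).

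The other large falls were in C2H2 genes of little known function. Zfp553 stood at 3.44, 4.30, 3.02 and 3.95 RPKM in WT mice and at 0.939, 0.833, 1.96 and 1.16 RPKM in Lyn-/- mice. Its groups do not overlap, and its log2 fold change was -1.31 ± 0.20 (SE, limma adjusted p = 4.1e-05). Zfp280b was 1.26 to 1.65 RPKM in WT mice and 0.269 to 0.566 RPKM in Lyn-/- mice (log2 fold change -1.16 ± 0.17 SE, limma adjusted p = 3.3e-05). Zfp831 was 1.67 to 2.19 RPKM and 0.590 to 0.673 RPKM in the same genotypes (log2 fold change -1.05 ± 0.16 SE, limma adjusted p = 4.9e-05). Zfp692, Zfp280d and Zfp1 fell by 1.03, 1.01 and 1.01 on the log2 scale, also without overlap. Zfp692 held 1 Lyn-/- mouse (2.47 RPKM) well above the other 3 (0.903 to 1.13 RPKM). These calls held with any 1 mouse left out. Zfp142, which met the level rule through the WT mice alone, stood at 1.11 to 1.40 RPKM in WT mice and 0.412 to 0.811 RPKM in Lyn-/- mice. Among the most abundant Zfp genes, Zfp207, a spindle assembly factor, and Zfp664 averaged 15.6 and 10.8 RPKM over all mice and were called in none of the 5 comparisons.

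The 6 Zfp genes that rose in Lyn-/- mice were Zfp385a, Zfp703, Zfp710, Zfp526, Zfp874a and Zfp524. Zfp385a, which takes part in megakaryocyte maturation and binds p53, stood at 2.71, 2.29, 0.871 and 2.45 RPKM in WT mice and at 5.41, 4.80, 4.37 and 4.2 RPKM in Lyn-/- mice. All Lyn-/- mice lay above all WT mice, and its log2 fold change was 1.08 ± 0.27 (SE, limma adjusted p = 0.0048). Zfp710 was 3.62 to 4.12 RPKM in WT mice and 6.28 to 10.4 RPKM in Lyn-/- mice (log2 fold change 0.95 ± 0.19 SE, limma adjusted p = 0.00061). Zfp703, a transcriptional co-repressor known from human breast cancer, was 0.805 to 1.30 RPKM and 1.67 to 3.31 RPKM in these genotypes (log2 fold change 0.98 ± 0.26 SE, limma adjusted p = 0.0062). The call of Zfp874a (0.77 ± 0.29 SE, limma adjusted p = 0.048) was lost in 16 of the 20 fits that leave out 1 mouse, and the groups overlapped in Zfp526 and Zfp524. Platelet markers, which Zfp385a's known role bears on, had 2 of 12 that rose and sums of 2110 to 2710 RPKM in WT mice and 2010 to 4210 RPKM in Lyn-/- mice. Whether platelets or myeloid cells carried the rise was not tested.

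Genes with the KRAB pattern and other C2H2 genes moved the same way after loss of Lyn. A KRAB domain that departs from the pattern is missed, so the other C2H2 genes may include some KRAB genes. Of the 64 KRAB genes 24 fell and 1 rose, with a median log2 fold change of -0.46. Of the 97 C2H2 genes without a KRAB pattern 31 fell and 4 rose, with a median of -0.31. By number of fingers, 29 of 72 genes with 10 or more C2H2 patterns fell, 17 of 60 with 5 to 9 and 9 of 29 with 1 to 4, with medians of -0.39, -0.35 and -0.40. By place in the genome, 10 of 31 genes on chromosome 7 fell, 7 of 21 on chromosome 17, 6 of 16 on chromosome 8 and 2 of 16 on chromosome 13. Differences between these classes were not tested.

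**Figure D3:**
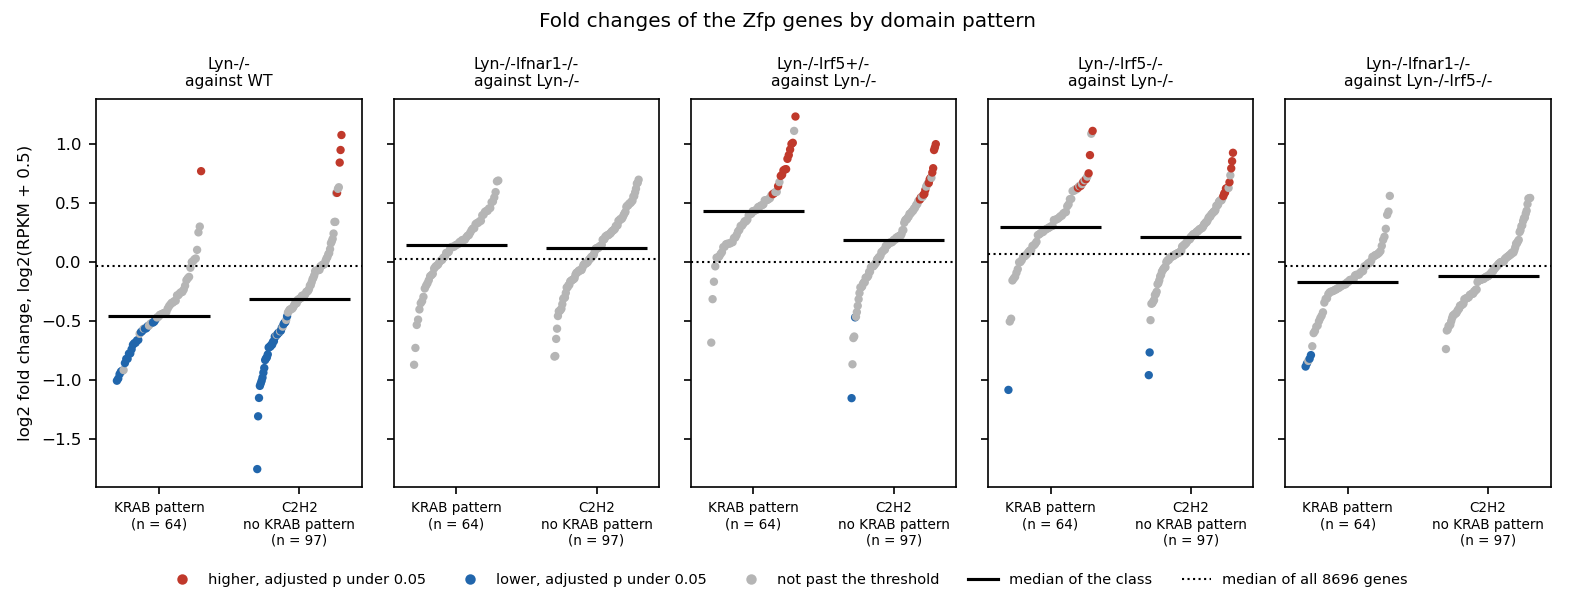
Log2 fold changes on the log2(RPKM + 0.5) scale of the 64 KRAB genes and the 97 other C2H2 genes in 5 comparisons, in rising order within each class. Each point is a gene, black bars are class medians and dotted lines the median of all 8696 genes. Red and blue points passed the test as higher and lower. In Lyn-/- against WT blood the class medians lie at -0.46 and -0.31.

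The partners through which these proteins act were also measured. Of 23 genes of the KRAB co-repressor machinery 6 fell and none rose in Lyn-/- mice, with a median of -0.35. The share that fell was 26.1%, against 15.5% of all genes tested. They were Hdac2 (-0.90), Suv39h1 (-0.84), Cbx5 (-0.68), Atrx (-0.67), Cbx1 (-0.62) and Chd3 (-0.51 on the log2 scale), which encode a histone deacetylase, a histone methyltransferase, HP1 proteins and chromatin remodellers. Trim28 (-0.21 ± 0.14 SE, limma adjusted p = 0.26) and Setdb1 (-0.21 ± 0.23 SE, limma adjusted p = 0.51), the core of the KRAB complex, did not pass. Of 21 genes of CCR4-NOT and other decay partners of TTP 4 fell (19%, near the 15.5% of all genes) and none rose, with a median of -0.35. Those that fell were Cnot10 (-0.58), Rqcd1 (-0.58), Cnot7 (-0.48) and Cnot1 (-0.42), all CCR4-NOT subunits. The calls of Cnot10 and Cnot7 were lost without WT mouse 4 and WT mouse 2. Of 9 mRNAs known as TTP targets that met the level rule, Zfp36 itself among them, 6 rose and none fell, with a median of 1.05. The share that rose was 66.7%, against 17.1% of all genes. Listed targets below the level rule were left out. Among those that rose were Il1b (1.82), Nfkbiz (1.10) and Tnf (1.05), which encode inflammatory mediators or their regulators. Monocyte and neutrophil markers, which rose as given above, mark the cells that make these mRNAs. Their part was not tested. The call of Tnf was lost without WT mouse 2 or 3 or Lyn-/- mouse 1 or 3.

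The other comparisons ask what removal of Ifnar1 or Irf5 does to blood that lacks Lyn, and 3 of them share the same 4 Lyn-/- mice. Their results are therefore given side by side and not as repeats of each other or of the comparison with WT.

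Removal of Ifnar1 gave no Zfp gene past the threshold in either direction (0 of 167 by limma), where 2.74% of all genes rose and 3.96% fell. At an unadjusted p under 0.05, 20 Zfp genes were higher and 7 lower, and limma-voom on the recovered reads called 2 higher and 2 lower. For neither setting is the share of all genes given here, so these numbers cannot be set against it. The median log2 fold change was 0.13, against 0.021 for all genes, and 104 of the 167 (62.3%, against 52.4% of all genes) were above 0. Zfp553 stood at 1.99, 2.70, 2.11 and 1.6 RPKM in Lyn-/-Ifnar1-/- mice against 0.833 to 1.96 RPKM in Lyn-/- mice, which overlap (0.62 ± 0.20 SE, limma adjusted p = 0.063). Zfp395 stood at 2.56, 1.51, 1.10 and 1.11 RPKM against 0.586 to 0.936 RPKM, without overlap, and did not pass (0.70 ± 0.22 SE, limma adjusted p = 0.062). Zfp36 was 0.36 lower on the log2 scale (SE 0.15, limma adjusted p = 0.16). Of the partners, Suv39h1 (0.92), Chd3 (0.60) and Cnot10 (0.60) rose and Daxx, a chaperone of histone H3.3, fell (-0.52), as did the TTP target Nfkbiz (-0.57). B cell markers rose in 8 of 19 and T cell markers in 9 of 20, with T cell sums of 500 to 690 RPKM against 324 to 472 RPKM, while 10 of 14 monocyte and 5 of 16 neutrophil markers fell, and their part was not tested. The calls of Daxx, Cnot10 and Nfkbiz were lost in 12, 6 and 4 of 20 fits without 1 mouse. Leaving out 1 mouse gave 0 to 3 Zfp genes higher and 0 to 2 lower. The most, 3 and 2, came without the shallow Lyn-/-Ifnar1-/- mouse 3. It was 2 and 0 without Lyn-/- mouse 4, and 1 was higher without Lyn-/- mouse 1 or 3, Lyn-/-Ifnar1-/- mouse 1, 2 or 4 or Lyn-/-Irf5+/- mouse 2. Without Lyn-/- mouse 1 or 3 or Lyn-/-Ifnar1-/- mouse 1, 1 was also lower.

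After loss of 1 copy of Irf5 more Zfp genes were higher than lower in the deposited scaling. In Lyn-/-Irf5+/- mice 27 of 167 were higher and 3 lower (limma), where 6.12% of all genes were higher and 8.46% lower. The median log2 fold change was 0.27, against -0.00067 for all genes. Of the KRAB genes 14 of 64 were higher and none lower (median 0.43), and of the other C2H2 genes 13 of 97 were higher and 2 lower (median 0.19). Zfp472 stood at 1.55, 1.94, 1.6 and 1.58 RPKM in Lyn-/-Irf5+/- mice and at 0.589, 0.188, 0.591 and 0.374 RPKM in Lyn-/- mice. These values do not overlap, although they rest on 6 to 14 and 1 to 5 reads a mouse (log2 fold change 1.23 ± 0.22 SE, limma adjusted p = 0.0013). Zfp260, a C2H2 gene with 12 fingers and more reads, stood at 5.91, 6.24, 6.37 and 6.08 RPKM against 2.0, 3.08, 3.62 and 2.82 RPKM (1.0 ± 0.15 SE, limma adjusted p = 0.00048). WT mice had 4.72 to 5.98 RPKM of it, so that the heterozygous mice reached or passed the WT range. Zfp748 (1.0), Zfp280b (0.97), Zfp429 (0.95) and Zfp553 (0.95 on the log2 scale) were also higher without overlap.

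Among the Zfp genes with a known role, Zfp809, Zfp281, Zfp292 and Zfp830 were higher and Zfp385a and Zfp106 lower in Lyn-/-Irf5+/- mice. Zfp281, a regulator of pluripotency in mouse embryonic stem cells, stood at 1.61 to 2.36 RPKM against 0.918 to 1.83 RPKM in Lyn-/- mice, with overlap (0.57 ± 0.19 SE, limma adjusted p = 0.044), and its call was lost in 12 of 20 fits without 1 mouse. That of Zfp809 was lost in 13, and that of Zfp830 without any 1 of Lyn-/- mice 1 and 3 and Lyn-/-Irf5+/- mice 3 and 4 (limma adjusted p up to 0.11). Zfp385a stood at 2.48, 0.741, 2.18 and 2.42 RPKM, below all Lyn-/- mice, against 0.871 to 2.71 RPKM in WT mice (-1.16 ± 0.27 SE, limma adjusted p = 0.0073). Zfp106, an RNA-binding protein needed in motor neurons and muscle, was 2.99 to 3.78 RPKM against 3.87 to 5.21 RPKM (-0.47 ± 0.13 SE, limma adjusted p = 0.021, up to 0.059 without any 1 of Lyn-/- mice 1 and 3 and Lyn-/-Irf5+/- mice 2 and 3). The third gene that was lower was Zfp703 (-0.82), whose call was lost in 6 of 20 fits without 1 mouse (limma adjusted p up to 0.12). Hdac2 (0.64) and Cnot7 (0.61) rose among the partners, and the call of Hdac2 was lost in 4 of 20 fits without 1 mouse. B cell markers rose in 14 of 19 and T cell markers in 11 of 20 (sums 249 to 286 and 568 to 706 RPKM). Monocyte markers fell in 7 of 14, with sums of 2350 to 3240 RPKM that overlapped the 2620 to 3530 RPKM of Lyn-/- mice. The part of these cell types was not tested. Lyn-/-Irf5+/- mice 2 and 3 had the fewest reads (1098011 and 1020207) and the highest hemoglobin shares (78.9% and 75.8%) of all mice. Without mouse 2 the number of Zfp genes higher was 15 and lower 1, without mouse 3 lower was 1, and without Lyn-/-Ifnar1-/- mouse 3 lower was 6. A fit of the 2 genotypes alone gave 13 higher and 1 lower. Scaling to the same RPKM sum gave 0 and 0, or 10 and 0 outside hemoglobin genes, where the median of all genes moved to -0.20 and 0.25. How many of all genes were called in these fits is not given here.

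Loss of both copies of Irf5 gave 17 Zfp genes higher and 3 lower than in Lyn-/- blood (limma), where 5.36% of all genes were higher and 8.58% lower. The median was 0.25, against 0.064 for all genes. Zfp472 stood at 1.0, 1.62, 1.84 and 1.59 RPKM in Lyn-/-Irf5-/- mice, above the 0.188 to 0.591 RPKM of Lyn-/- mice (1.11 ± 0.22 SE, limma adjusted p = 0.0023). Zfp553 stood at 2.58, 3.83, 2.08 and 2.45 RPKM, again above all Lyn-/- mice (0.93 ± 0.20 SE, limma adjusted p = 0.0037). Zfp169 stood at 0.967, 2.01, 1.66 and 1.40 RPKM against 0.395 to 0.631 RPKM (0.91 ± 0.22 SE, limma adjusted p = 0.0082), and its value in Lyn-/-Irf5+/- mice was 0.946 to 1.91 RPKM. Zfp395 (0.85), Zfp828 (0.79), Zfp12 (0.75) and Zfp831 (0.68 on the log2 scale) were also higher. Zfp828 (CHAMP1) is a protein of chromosome alignment in mitosis. The call of Zfp395 was lost without Lyn-/-Irf5-/- mouse 2, and that of Zfp828 in 7 of 20 fits without 1 mouse.

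The 3 genes that were lower in Lyn-/-Irf5-/- mice were Zfp874a (-1.09), Zfp526 (-0.96) and Zfp341 (-0.77). Zfp341, whose human counterpart activates STAT3 transcription, was 0.331, 0.522, 0.890 and 0.862 RPKM against 0.940 to 2.32 RPKM in Lyn-/- mice, and its call was lost in 8 of 20 fits without 1 mouse. That of Zfp874a was lost without Lyn-/- mouse 4, which held its highest value (6.34 RPKM). Of the KRAB genes 7 of 64 were higher and 1 lower (median 0.30), and of the other C2H2 genes 10 of 97 were higher and 2 lower (median 0.21). Among the partners Hdac2 (0.64) and Dnmt3a, a DNA methyltransferase (0.63), rose and none fell, and their calls were lost in 5 and 3 of 20 fits without 1 mouse. B cell markers rose in 14 of 19 and T cell markers in 13 of 20, while 9 of 14 monocyte and 8 of 15 erythroid markers fell. The monocyte sum did not fall with them. It was 2620 to 3060 RPKM (median 2850) against 2620 to 3530 RPKM (median 2710) in Lyn-/- mice. Erythroid sums were 373000 to 646000 against 412000 to 934000 RPKM, with overlap. The part of these cell types was not tested. The split of higher against lower calls depended on scaling. It was 8 and 0 at the same RPKM sum and 73 and 0 at the same sum outside hemoglobin genes, where the median of all genes moved to 0.54 and 0.65, and relative to all genes the Zfp median was 0.14 and 0.11, against 0.19 in the deposited scaling. Higher calls numbered 10, 9 and 11 without Lyn-/-Irf5-/- mice 1, 2 and 3. Lower calls numbered 0 without Lyn-/- mouse 4 and 1 without Lyn-/- mouse 2 or Lyn-/-Irf5-/- mouse 1 or 2.

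**Figure D4:**
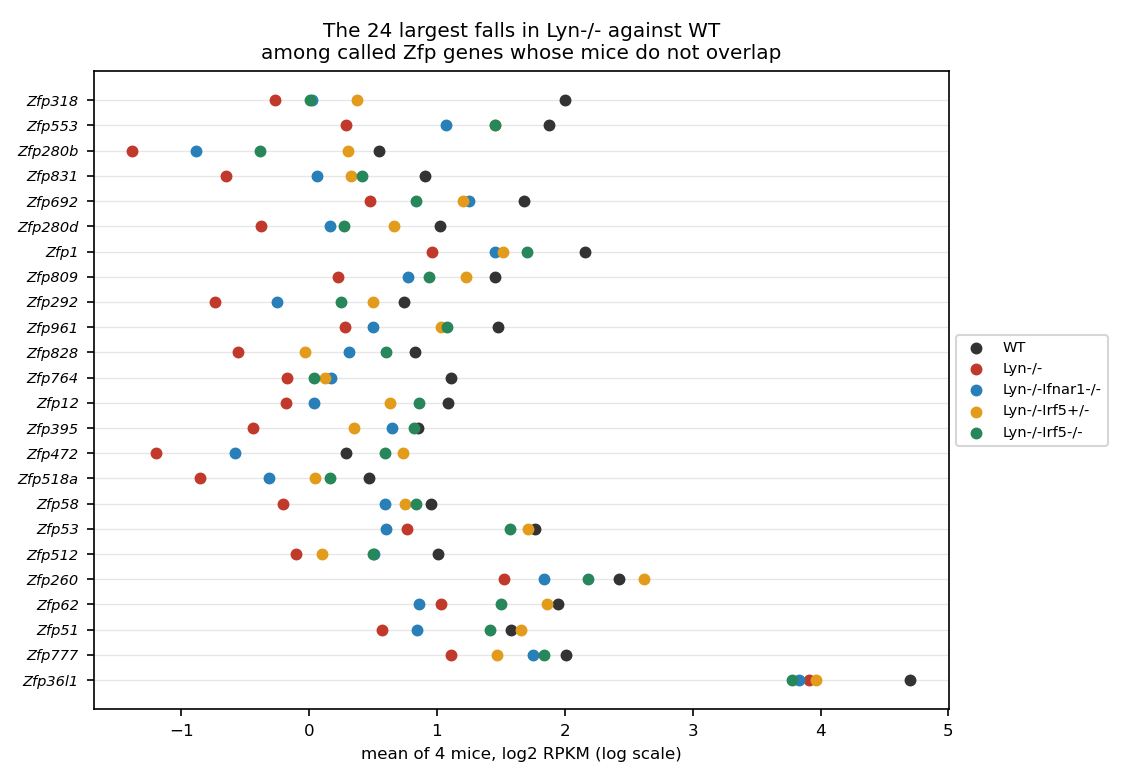
Mean level in each genotype (log2 RPKM, 4 mice each) of the 24 genes with the largest falls in Lyn-/- against WT mice, among the 48 that fell without overlap. The genes were picked on the Lyn-/- and WT values. Zfp36l1 and Zfp318 are near the Lyn-/- level in every genotype without Lyn, and Zfp472 and Zfp260 reach or pass the WT level in Lyn-/-Irf5+/- mice.

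Removal of Ifnar1 was then set against removal of Irf5. In Lyn-/-Ifnar1-/- mice 4 Zfp genes were lower than in Lyn-/-Irf5-/- mice and 0 higher (limma), where 2.06% of all genes were lower and 1.95% higher. At an unadjusted p under 0.05 the numbers were 23 lower and 4 higher, and limma-voom called 3 lower and 0 higher. The share of all genes is again not given for these 2 settings. All 4 genes, Zfp169 (-0.89), Zfp53 (-0.86), Zfp958 (-0.82) and Zfp472 (-0.79), carry a KRAB pattern, and the mice overlapped in Zfp472. Zfp169 stood at 0.918, 0.822, 0.222 and 0.450 RPKM in Lyn-/-Ifnar1-/- mice, all below the 0.967 to 2.01 RPKM of Lyn-/-Irf5-/- mice (± 0.22 SE, limma adjusted p = 0.028). Zfp53 stood at 1.02, 2.47, 1.81 and 0.765 RPKM against 2.72 to 3.15 RPKM (± 0.23 SE, limma adjusted p = 0.039). The Lyn-/-Ifnar1-/- values rest on few reads a mouse, 1 to 14 for Zfp169, 5 to 31 for Zfp53, 1 to 5 for Zfp958 and 1 to 7 for Zfp472. The calls of these 4 genes were lost in 5, 10, 4 and 14 of the 20 fits that leave out 1 mouse. Zfp36 and Zfp36l2 were lower without overlap and did not pass (-0.50 ± 0.15 and -0.49 ± 0.16 SE, limma adjusted p = 0.069 and 0.092). Among the partners the maintenance DNA methyltransferase Dnmt1 was higher (0.96) and Daxx (-0.59) and the TTP target Il1rn (-1.43), an antagonist of the interleukin-1 receptor, were lower, with calls lost in 6, 6 and 5 of those fits. Of 15 erythroid markers 4 were higher in Lyn-/-Ifnar1-/- mice, with sums of 454000 to 1560000 RPKM that overlapped the 373000 to 646000 RPKM of Lyn-/-Irf5-/- mice. Monocyte sums were lower without overlap (1820 to 2480 against 2620 to 3060 RPKM), as were plasma cell sums (23.2 to 28 against 28.9 to 36.4 RPKM). Neutrophil sums overlapped narrowly (900 to 2470 against 2460 to 3310 RPKM). B cell, T cell, NK cell and platelet sums also overlapped. The part of these cell types was not tested. The number of Zfp genes lower was 8 without Lyn-/-Ifnar1-/- mouse 1, 10 without mouse 2, 1 without mouse 3 and 0 without mouse 4. It was 2 without Lyn-/- mouse 3 or Lyn-/-Irf5-/- mouse 1, and 0 without Lyn-/-Irf5-/- mouse 2, 3 or 4. Without Lyn-/-Ifnar1-/- mouse 1 or 2, 1 gene was higher. A fit of the 2 genotypes alone called 0 genes lower.

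The stretch from 250 bases before to 50 bases after the start of each gene (RefSeq, GRCm38.p6, first listed start, both strands) was searched for short motifs in 139 of the 167 genes. The ETS motif CCGGAAG was in 20.9% of them, against 21% of 6630 tested genes with such a stretch and 9.12% of all 27025 genes. CCAAT was in 47.5%, against 38.3% and 37.9%. In the 44 of these genes that fell in Lyn-/- mice the shares were 13.6% and 45.5%. A match is a run of letters and does not show that a factor binds there.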

How the data were processed

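Blood RNA was sequenced in 20 mice by a strand-specific protocol. Per the labels and the methods of the study, the authors converted reads with bcl2fastq, aligned them to mm10 with STAR, counted them per gene with featureCounts and computed RPKM with edgeR after TMM scaling. The gene annotation, the strand setting and the treatment of reads that match several genes are not given in the sources used here, so overlapping and antisense genes cannot be separated. The deposited table holds RPKM for 9228 genes.

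Levels were taken as log2(RPKM + 0.5), which understates the change of low genes. The 8696 genes that reached 1 RPKM in 4 or more libraries were fitted in 1 model of all 20 libraries by limma 3.58.1 (R 4.3.3) with a variance trend and genotype as the only term, and p values were adjusted by Benjamini-Hochberg within each comparison (threshold 0.05). They rest on the spread between mice of the same genotype, pooled over all genotypes in the model. Mice of genotypes outside a comparison therefore also move its p values. Whole reads were recovered from the RPKM steps (tolerance 0.05 reads). Every library correlated with the others of its genotype at 0.913 to 0.984. The fit and the recovery were tested on simulated data. Tables were made with pandas 2.3.3 and numpy 2.4.6 under Python 3.11.15 and plots with matplotlib 3.10.9.

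Coding stretches came from GENCODE vM21 transcripts and gene positions and promoters from RefSeq. The KRAB pattern was shaped by reading the start of these proteins, without their expression values.

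The rule for named genes takes the TTP family, the 5 genes with the highest means, up to 8 genes a direction and comparison past the threshold without overlap, called genes with a known role, genes at 1 RPKM in 1 genotype only and the genes beside the limit. The text gives a part of them. The values of 1 gene beside the limit are not reported here. The members and lists were chosen with earlier results of these data known. Alternatives covered pseudocount, filter, scaling, libraries in the model, variance trend, replicate block, limma-voom and leaving out each mouse.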

Additional observations from a re-analysis of the deposited data

Results flagged for a closer look

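Of 195 sets of 4 mice examined (each named Zfp gene, and the sum and number of Zfp genes, in each genotype), 13 held a mouse whose distance to its nearest neighbour took up more of the range of the 4 mice than Dixon's 95% limit allows. Chance marks about 1 set in 20. No cause was tested.

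High mice were Lyn-/- mouse 4 for Zfp692 (2.47 RPKM against 0.903 to 1.13), Lyn-/-Irf5+/- mouse 3 for Zfp280b (1.66 against 1.06 to 1.16), Lyn-/-Irf5+/- mouse 2 for Zfp472 (1.94 against 1.55 to 1.6) and Lyn-/-Irf5-/- mouse 2 for Zfp36l1 (19.4 against 11.4 to 12.6 RPKM).

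Low mice were WT mouse 4 for Zfp395 (1.46 RPKM against 1.89 to 1.97), Lyn-/-Ifnar1-/- mouse 1 for Zfp148 (0.852 against 1.48 to 1.6), Lyn-/-Irf5+/- mouse 4 for Zfp280d (0.509 against 1.86 to 2.08) and Zfp281 (1.61 against 2.25 to 2.36), and Lyn-/-Irf5-/- mouse 1 for Zfp281 (1.58 against 2.04 to 2.12 RPKM). Lyn-/-Irf5-/- mouse 3 was low for Zfp51 (2.12 against 2.84 to 2.87) and Zfp710 (4.28 against 6.75 to 7.2 RPKM).

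The summed level of the 167 genes was 432 RPKM in Lyn-/- mouse 1 and 395 to 399 RPKM in the other Lyn-/- mice. WT mouse 3 had 140 genes at 1 RPKM or more, and the other WT mice 151 to 152.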

How the results depend on the processing

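The counts of Zfp genes higher and lower kept within 1.5 times their value with a pseudocount of 0.1 or 1, with no filter, with a mean of at least 1 RPKM, with median-of-ratios scaling, without a variance trend and, for 4 of the 5 comparisons, with limma-voom on recovered reads. Limma-voom called 2 higher and 2 lower for Lyn-/-Ifnar1-/- against Lyn-/- mice. With the same RPKM sum the counts were 0 and 10 for Lyn-/- against WT, 0 and 0 for Lyn-/-Irf5+/- and 8 and 0 for Lyn-/-Irf5-/- against Lyn-/- mice. With the same sum outside hemoglobin genes they were 0 and 85, 10 and 0, and 73 and 0, and 17 genes were lower in Lyn-/-Ifnar1-/- than in Lyn-/-Irf5-/- mice. In fits of 2 genotypes alone they were 13 and 1 for Lyn-/-Irf5+/- against Lyn-/-, and 0 lower for Lyn-/-Ifnar1-/- against Lyn-/-Irf5-/- mice, and the cause was not tested. None of these counts is set beside the share of all genes called under the same setting.

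Without 1 mouse the counts higher and lower ran from 3 to 7 and 39 to 59 for Lyn-/- against WT, 0 to 3 and 0 to 2 for Lyn-/-Ifnar1-/-, 15 to 29 and 1 to 6 for Lyn-/-Irf5+/- and 9 to 22 and 0 to 3 for Lyn-/-Irf5-/- against Lyn-/- mice, and 0 to 1 and 0 to 10 for Lyn-/-Ifnar1-/- against Lyn-/-Irf5-/- mice.

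Of 98 fold changes of single genes, 62 lost their call at the same RPKM sum and 26 at the same sum outside hemoglobin genes. In fits of 2 genotypes 21 lost it, and with limma-voom 9. Some of the 98, such as Zfp36 in Lyn-/- against WT mice, were not past the threshold and had no call to lose. The shares of calls lost are therefore larger than these numbers out of 98. The one that turned sign was Zfp36 in Lyn-/- against WT mice (log2 fold change -0.089 and -0.42 under both sums).

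Replicate numbers did not pair the mice, since same-numbered mice correlated at -0.241 to 0.499 in their deviations from the genotype mean, with 11 of 40 pairs over 0.1, and for 4 of 20 mice the closest mouse of another genotype had the same number. With a replicate block the counts were 6 and 55, 0 and 0, 23 and 3, 18 and 3, and 0 and 5 in the order above. The median Zfp gene held 6 to 31 reads a mouse, so that counting error limits single genes.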
